A study of Mus musculus with 72 samples.

Results

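RNA polymerase I transcribes the ribosomal RNA genes, and the 10 genes described here encode parts of that machinery: the subunits Polr1a, Polr1b, Polr1c, Polr1d and Polr1e, the initiation factor Rrn3, the upstream binding factor Ubtf, and the Taf1b, Taf1c and Taf1d subunits of the promoter selectivity factor SL1. They were taken from a fixed list of gene names, and all 10 were found in each of the 4 count tables, which list 35149, 30901, 35556 and 35556 genes. All 10 also passed the filter on low counts in every table.

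The samples are mouse B-cell lymphomas that carry the Eμ-Myc transgene, in which an immunoglobulin heavy chain enhancer drives Myc in B cells. In the acute experiment, C57BL/6 mice transplanted with clone 4242 lymphoma cells carrying MSCV Gfp were treated for 2 h on day 10 with CX5461 at 35 mg/kg, with everolimus at 5 mg/kg, with both drugs together (the combination) or with vehicle, and lymph nodes were taken from 6 mice per group. In the relapse experiment, clone 107 lymphomas were grown as early passage lines (passage 2 to 3) from mice that succumbed to disease on CX5461, on everolimus, on the combination or on vehicle, with 3 lines per group. Lines from the vehicle arm never met either drug and are named naive below. From every mouse and every line there is a library of cytoplasmic RNA (input) and another of RNA on 4 or more ribosomes (polysomal), 72 libraries in all. Each experiment rests on 1 lymphoma clone, the acute lymph nodes still hold host cells, and a change in a lymph node cannot tell fewer cells of a type from less RNA per cell.

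The polymerase I enzyme is built around its largest subunit, encoded by Polr1a, and the second largest, encoded by Polr1b, which together form the catalytic centre. It is brought to the ribosomal DNA promoter when Rrn3, also known as TIF-IA, bridges the enzyme to SL1, which sits on the promoter with Ubtf. CX5461 was developed as an inhibitor of polymerase I initiation and is also known to act on G-quadruplex DNA and topoisomerase II, while everolimus inhibits mTORC1, a kinase complex that controls ribosome production partly through Rrn3. Myc is known to raise the expression of many ribosome biogenesis genes, binding the E-box motif CACGTG.

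The genes lie on 10 different chromosomes. In GRCm38 and the GENCODE M21 annotation, Polr1a is at chr6:71909053-71984935, Polr1b at chr2:129100995-129126594, Polr1c at chr17:46243920-46248054, Polr1d at chr5:147077050-147111597 and Polr1e at chr4:45018583-45036565. Rrn3 is at chr16:13780708-13814839, Ubtf at chr11:102304560-102319742, Taf1b at chr12:24498359-24558539, Taf1c at chr8:119597871-119605222 and Taf1d at chr9:15306214-15316991. Some of them share exon bases with genes on the other strand: Polr1a shares 185 bases with the antisense transcript Gm26628, Taf1c shares 584 bases with Dnaaf1, and Taf1d shares 235 bases with 4931406C07Rik and 77 with Cep295. Taf1d is also the host of several small nucleolar RNAs. Whether the authors counted by strand is not given in the sources used here, so reads of these overlapping pairs cannot be told apart.

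The promoters of 4 members are shown because Rrn3 was the member called after the combination in mice, while Polr1a, Polr1b and Polr1c carry most of the calls in the relapse lines. The sequences are from RefSeq on build GRCm38.p6, run from 250 bases before to 50 bases after the start site, and are given 5′ to 3′ on the strand of the gene. Capitals mark the E-box CACGTG and the ETS factor core CTTCCG or its reverse complement CGGAAG, which do not overlap each other.
Rrn3: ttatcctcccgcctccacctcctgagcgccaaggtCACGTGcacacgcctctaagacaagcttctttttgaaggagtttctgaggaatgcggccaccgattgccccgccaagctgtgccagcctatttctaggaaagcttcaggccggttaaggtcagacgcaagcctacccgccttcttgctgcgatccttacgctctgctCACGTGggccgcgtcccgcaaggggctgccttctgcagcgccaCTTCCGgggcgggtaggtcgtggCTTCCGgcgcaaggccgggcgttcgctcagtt
Polr1a: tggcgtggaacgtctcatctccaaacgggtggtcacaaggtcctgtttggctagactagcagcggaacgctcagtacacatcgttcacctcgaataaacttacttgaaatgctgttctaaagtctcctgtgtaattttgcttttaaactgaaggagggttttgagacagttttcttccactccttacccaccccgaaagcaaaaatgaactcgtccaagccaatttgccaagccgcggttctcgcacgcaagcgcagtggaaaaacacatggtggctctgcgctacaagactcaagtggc
Polr1b: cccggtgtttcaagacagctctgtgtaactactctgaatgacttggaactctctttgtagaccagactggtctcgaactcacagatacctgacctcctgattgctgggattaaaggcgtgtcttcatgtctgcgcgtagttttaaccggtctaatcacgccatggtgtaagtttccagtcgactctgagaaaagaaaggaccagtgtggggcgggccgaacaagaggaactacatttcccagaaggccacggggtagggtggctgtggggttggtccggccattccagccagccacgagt
Polr1c: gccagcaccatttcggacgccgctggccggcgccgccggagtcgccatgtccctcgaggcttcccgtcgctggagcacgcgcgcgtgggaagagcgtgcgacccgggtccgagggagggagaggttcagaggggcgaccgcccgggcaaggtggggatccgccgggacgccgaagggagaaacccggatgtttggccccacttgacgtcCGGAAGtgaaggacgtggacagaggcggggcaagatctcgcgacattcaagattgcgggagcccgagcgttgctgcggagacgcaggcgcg
These windows are chr16:13780449-13780748 on the plus strand for Rrn3, chr6:71908803-71909102 on the plus strand for Polr1a, chr2:129100746-129101045 on the plus strand for Polr1b, and chr17:46247996-46248295 on the minus strand for Polr1c. The Rrn3 promoter holds 2 E-boxes, whose first bases lie at -215 and -48 from the start site, and 2 ETS cores, at -5 and 19. Promoters were found for all 10 members, and Rrn3 was the 1 member with CACGTG in a window, against 7.15% of 32851 promoters in the table. The ETS core was found in 5 members (Polr1c, Polr1e, Rrn3, Taf1b and Taf1c), against 16.9% of all promoters. Members were counted as genes with a match in any window, and Ubtf has 6 windows and Taf1c 2. The shares are of single windows, so the member counts are not directly comparable with them. A match is a description of the letters in the window only.

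The libraries held 17.1 to 24.7 M gene counts for acute input, 11.5 to 20.9 M for acute polysomal, 14.6 to 26.02 M for relapse input and 15.5 to 30.4 M for relapse polysomal RNA. Gm26870 and Gm10800 held 15.0 to 23.3% of counts in 3 acute input libraries (CX5461 mice 4 and 6, everolimus mouse 2). Lars2 and Yam1 held 10.1 to 26.2% in 4 acute polysomal libraries (vehicle mice 2, 5 and 6, CX5461 mouse 6). The 9 B cell markers summed to 1378 to 2847 CPM (counts scaled to library size) over all libraries. In the acute input libraries 15 T cell markers summed to 57.5 to 72.1 CPM after CX5461, 67.5 to 102 CPM after everolimus and 57.7 to 87.9 CPM after the combination, against 85.2 to 112 CPM after vehicle. Over all acute input libraries, stromal and endothelial markers summed to 1057 to 2154 CPM and myeloid markers to 348 to 524 CPM. In the relapse lines T cell markers summed to 2.20 to 12.8 CPM, and Cd3e was at 0 in 10 of 12 input and 12 of 12 polysomal libraries. The polysomal libraries of CX5461 lines 14 and 39 stood apart, with a median correlation of 0.84 to the other relapse polysomal libraries, against 0.96 to 0.97 for the other 10. Member calls against naive lines that rest on them are given with and without them. The CX5461 polysomal chromosome 6 median, the share of all genes called and the CX5461 efficiency count include them.

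Levels per length differed widely among the members. Length here is that of all annotated exons of a gene merged, whichever transcripts were present, and the order depends on that choice. Undivided by length, vehicle input means were 253 CPM for Ubtf, 222 for Polr1a, 20.4 for Taf1d and 20.1 for Taf1b. In vehicle-treated mice, input CPM per kb of exon averaged 39.2 ± 5.01 for Polr1d, 38.6 ± 1.72 for Ubtf, 37.0 ± 3.58 for Polr1b, 30.0 ± 3.89 for Polr1c and 29.3 ± 2.58 for Rrn3 (SD, n = 6). Each neighbour in this order overlapped the next in range over the 6 mice. Polr1a stood apart below them at 18.7 ± 0.99 CPM per kb. Polr1e at 8.65 ± 1.204, Taf1b at 7.66 ± 0.42 and Taf1c at 7.62 ± 0.64 CPM per kb overlapped each other, and Taf1d was lowest at 2.29 ± 0.34 CPM per kb (SD, n = 6). In the naive lines the input order was led by Ubtf at 31.3 ± 3.07 CPM per kb, above Polr1d at 22.8 ± 2.57, Polr1b at 18.2 ± 1.95, Polr1c at 17.8 ± 2.36, Rrn3 at 16.3 ± 3.62 and Polr1a at 14.04 ± 2.87 (SD, n = 3), of which each overlapped the next from Polr1d down to Polr1a. The SL1 subunits and Polr1e again formed the low end, at 3.08 to 3.99 CPM per kb.

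In the lymphoma-bearing mice the polymerase I genes changed little within 2 h. After CX5461 alone, 0 of 10 members were called at an adjusted p under 0.05 in either fraction by edgeR's quasi-likelihood test, against 0.399% of 16055 genes in input and 0.878% of 15374 genes in polysomal RNA. At an unadjusted p under 0.05 there were 0 members in input and 1 in polysomal RNA, and DESeq2 also called 0 in both. The estimates lay between -0.12 and 0.18 on the log2 scale in input, with 95% intervals from the SE reaching from -0.30 to 0.42, and between -0.25 and 0.25 in polysomal RNA, with intervals reaching from -0.42 to 0.58. Everolimus alone also gave 0 of 10 calls in both fractions, against 0.106% of genes in input and 0.15% in polysomal RNA. At an unadjusted p under 0.05 everolimus gave 3 members in input and 1 in polysomal RNA, and DESeq2 called Rrn3 in input (adjusted p = 0.0086) and 0 members in polysomal RNA.

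**Figure D1:**
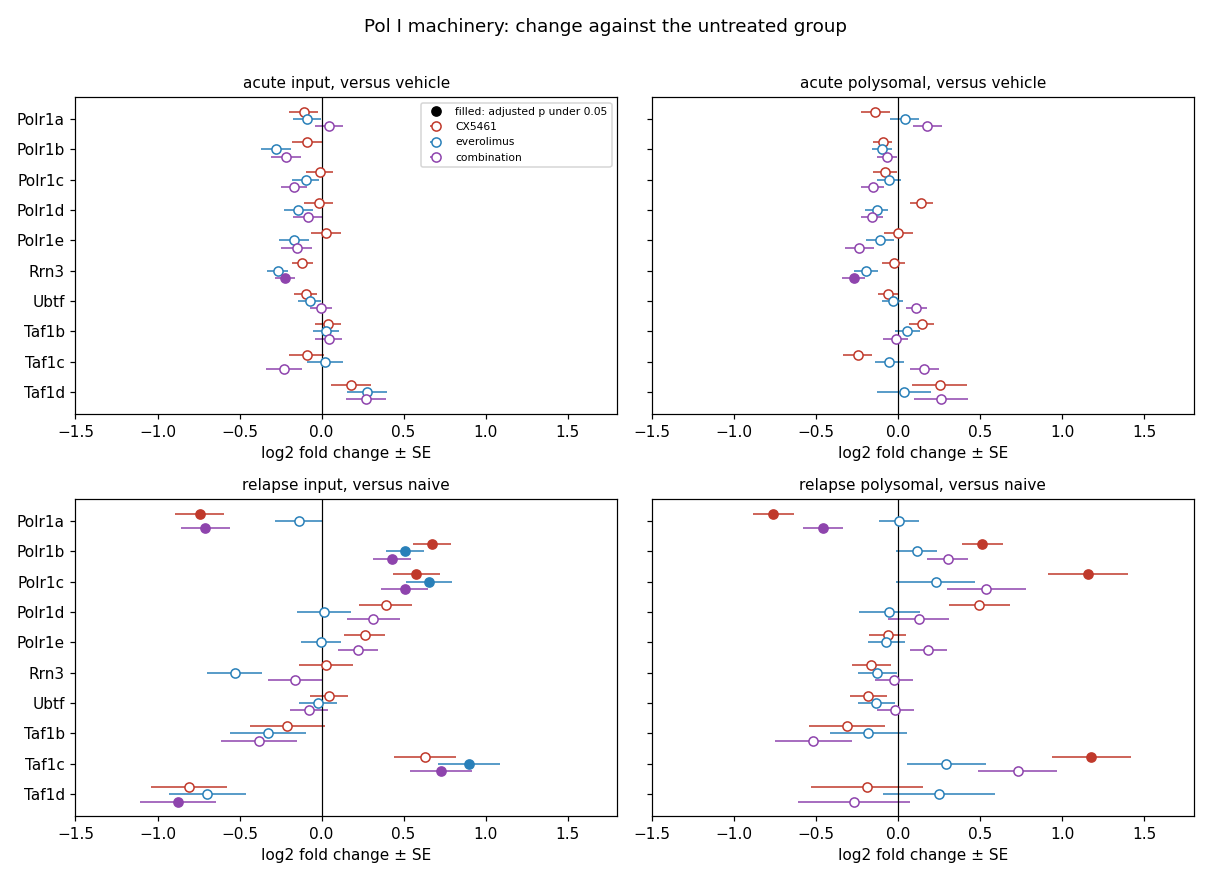
Log2 fold change (x axis) of the 10 members in the acute experiment against vehicle (top) and in the relapse lines against naive lines (bottom), in input (left) and polysomal RNA (right); points are edgeR estimates, bars 1 SE, and filled points have an adjusted p under 0.05. The acute estimates stay near 0, with Rrn3 filled after the combination, while in the relapse lines Polr1b, Polr1c and Taf1c lie to the right, and Polr1a lies to the left in CX5461 and combination lines but at -0.14 log2 in input and 0.01 log2 in polysomal RNA in everolimus lines.

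Rrn3, the factor that carries the enzyme to the promoter, was the member called after the combination. In input its level ran from 98.7 CPM through a median of 108 to 119 CPM in combination mice, against 114 CPM through a median of 127 to 146 CPM in vehicle mice. The ranges overlapped, with the combination mice in the lower part. Rrn3 was lower by -0.22 ± 0.06 log2 (SE, adjusted p = 0.036, edgeR). In polysomal RNA Rrn3 ran from 114 CPM through a median of 128 to 138 CPM in combination mice, against 131 CPM through a median of 149 to 173 CPM in vehicle mice, a difference of -0.27 ± 0.07 log2 (adjusted p = 0.029, edgeR). The other 9 members were not called in either fraction, so 1 of 10 was called in each, against 7.48% of genes in input and 7.42% in polysomal RNA.

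With everolimus alone Rrn3 ran from 95.5 CPM through a median of 104 to 116 CPM in input, the lowest of the 4 groups by median, at -0.27 ± 0.06 log2 against vehicle (adjusted p = 0.115, edgeR). With CX5461 alone its input level ran from 105 CPM through a median of 118 to 127 CPM, at -0.12 ± 0.06 log2 (adjusted p = 0.583, edgeR). The test of drug interaction called 0 of 10 members in either fraction, against 0% of genes in both, with 0 members in input and 3 in polysomal RNA at an unadjusted p under 0.05; DESeq2 called Taf1c in polysomal RNA (0.45 log2, adjusted p = 0.0419). Beside these values, 10 of the 15 T cell markers and 3 of 8 NK cell markers were called lower in combination than in vehicle input. NK cell markers summed to 4.69 to 7.72 CPM in combination and 8.07 to 12.2 CPM in vehicle input. Stromal and endothelial markers summed to 1247 to 1599 CPM after the combination and 1355 to 2154 CPM after everolimus, against 1057 to 1439 CPM after vehicle. Myeloid markers summed to 348 to 432 CPM after the combination and 363 to 486 CPM after everolimus, against 355 to 427 CPM after vehicle. Reads assigned to no gene made up 11.5 to 19.7% of combination and 6.07 to 14.9% of vehicle input reads. The part of these differences in the Rrn3 result was not tested. The Rrn3 input call was lost when combination and vehicle mice were fitted alone (adjusted p = 0.0585) and without the filter on low counts (adjusted p = 0.094).

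Polr1b, the second largest subunit, had input levels of 145 CPM through a median of 187 to 198 CPM after everolimus. After the combination it had 151 CPM through a median of 190 to 195 CPM. Vehicle mice had 186 CPM through a median of 214 to 248 CPM. These groups overlapped. Its difference was -0.28 ± 0.09 log2 after everolimus (adjusted p = 0.223, edgeR) and -0.22 ± 0.09 log2 after the combination (adjusted p = 0.121, edgeR), neither of which passed the test. Ubtf, the highest member per length in polysomal RNA, differed from vehicle by -0.10 to -0.00 log2 in input after the 3 treatments and was called in none.

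In polysomal RNA, members differed in both directions between the combination and CX5461 alone. Polr1a ran from 244 CPM through a median of 273 to 307 CPM after the combination. After CX5461 it ran from 194 CPM through a median of 213 to 266 CPM. The difference in Polr1a was 0.32 ± 0.09 log2 (adjusted p = 0.0127, edgeR). Taf1c, an SL1 subunit, ran from 31.2 CPM through a median of 36.6 to 38.9 CPM after the combination. After CX5461 it ran from 22.99 CPM through a median of 26.8 to 30.02 CPM, without overlap. The difference in Taf1c was 0.41 ± 0.09 log2 (adjusted p = 0.00309, edgeR). Polr1d, a small subunit shared with polymerase III, ran from 93.9 CPM through a median of 110 to 120 CPM after the combination. After CX5461 it ran from 121 CPM through a median of 132 to 143 CPM, also without overlap. The difference in Polr1d was -0.30 ± 0.07 log2 (adjusted p = 0.00441, edgeR). Rrn3 was lower by -0.24 ± 0.07 log2 (adjusted p = 0.0173, edgeR). The vehicle medians lay between those of both groups, at 247 CPM for Polr1a, 32.9 for Taf1c, 118 for Polr1d and 149 for Rrn3. Against vehicle, the combination values were 0.18, 0.16 and -0.16 log2 for Polr1a, Taf1c and Polr1d, none of them called.

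The 4 of 10 members called for the combination against CX5461 in polysomal RNA stand against 23.6% of genes. In input the same pair of groups gave 0 of 10 calls, against 0.866% of genes, with 0 members at an unadjusted p under 0.05. The combination against everolimus alone gave 0 of 10 calls in input, against 0% of genes, and 0 of 10 in polysomal RNA, against 0.0195%. The Polr1a call against CX5461 was lost without the mice whose polysomal library held over 10% of its counts on Lars2 and Yam1 (0.28 log2, adjusted p = 0.0524).

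**Figure D2:**
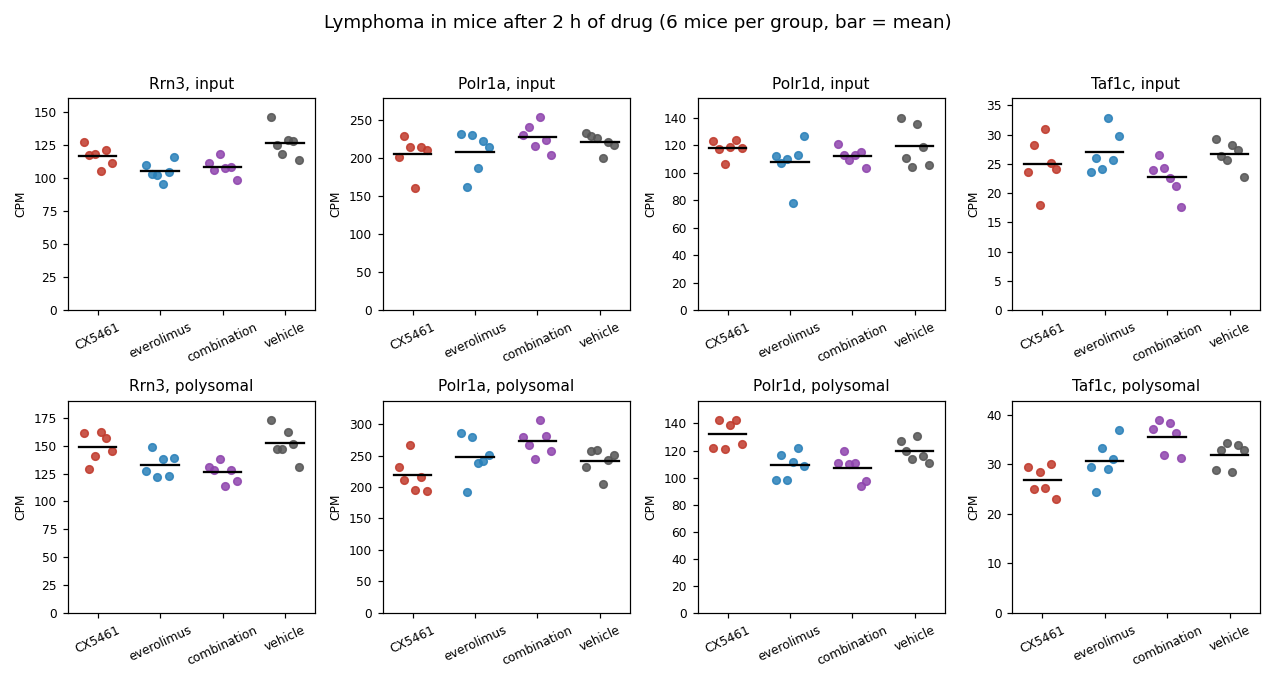
CPM (y axis) of Rrn3, Polr1a, Polr1d and Taf1c in each of 6 mice per group, in input (top) and polysomal RNA (bottom), with the group mean as a bar. Rrn3 combination mice lie between 98.7 and 119 CPM in input, against 114 to 146 CPM in vehicle mice. In polysomal RNA Polr1d and Taf1c of the combination and CX5461 mice do not overlap.

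Against vehicle, few other genes of the pathway were called in mice. Among the 3 other polymerase I subunits (Twistnb, Cd3eap and Znrd1) 0 were called against vehicle after any treatment in either fraction, with a median of -0.25 log2 after the combination in input, beside a median of -0.00 for all genes. Among the 5 subunits shared by polymerases I, II and III, Polr2h was called, lower by -0.38 ± 0.09 log2 in polysomal RNA after the combination (adjusted p = 0.0157, edgeR). Of 11 genes of rDNA termination and chromatin, such as Ttf1 and Baz2a, and of the 3 other SL1 and preinitiation genes, 0 were called against vehicle. The combination against CX5461 in polysomal RNA gave more calls, beside 23.6% of all genes in that comparison. There 1 of 3 other polymerase I subunits was lower (Twistnb, -0.23 log2), 2 of 3 other SL1 and preinitiation genes were lower (Taf12, -0.40, and Tbp, the TATA-binding protein, -0.22 log2), and 1 of 5 shared subunits was lower (Polr2h, -0.32 log2). Of the 11 genes of rDNA termination and chromatin 3 were lower, Npm1, a nucleolar histone chaperone, at -0.44 ± 0.09 log2 (adjusted p = 0.00227), Smarca5 at -0.33 and Ncl at -0.20 log2, and Baz2a, a subunit of the nucleolar remodelling complex, was higher by 0.50 ± 0.08 log2 (adjusted p = 0.00113, edgeR).

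Likeness over the 24 acute input libraries was measured by Pearson's r of log2 CPM, and the points share treatments and library composition. Only genes that averaged 4 log2 CPM or more were ranked. Provisional names, such as those ending in Rik or starting with Gm, were left out. Rrn3 was most like Cdca7 (r = 0.93, and 0.86 over the 24 polysomal libraries), Prpf3 (0.91 and 0.77) and Nhlrc2 (0.89 and 0.37). Polr1b was most like Calr (0.97 and 0.53), Wdr1 (0.94 and 0.44) and Urb2 (0.93 and 0.71). Taf1d was most like Rnf138 (0.82 and 0.54), Ptp4a2 (0.82 and 0.79) and Sh3bgrl (0.81 and 0.40). Of these, Rrn3 with Cdca7 and Taf1d with Ptp4a2 kept values near those in input in the polysomal libraries.

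The relapse lines differed more, and members moved in opposite directions. Polr1a, the largest catalytic subunit, was lower in CX5461 and combination lines, and Polr1b, its catalytic partner, was higher in all 3 kinds of relapse line in input. In input, 3 of 10 members were called in CX5461 lines against 8.37% of 14474 genes, 3 of 10 in everolimus lines against 11.7%, and 5 of 10 in combination lines against 13.5%. In polysomal RNA the counts were 4 of 10 against 19.5% of 14797 genes, 0 of 10 against 0.115%, and 1 of 10 against 10% (everolimus gave 0 members at an unadjusted p under 0.05, and DESeq2 also called 0). The 3 comparisons share the naive lines and are not independent of each other. With only the compared groups in a fit, the input calls that held were Polr1b in CX5461 lines, Taf1c in everolimus lines, and Polr1a and Taf1c in combination lines, and in polysomal RNA Polr1a in CX5461 lines and Polr1a in combination lines.

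Polr1a input levels were 89.2, 110 and 100.3 CPM in the CX5461 lines and 99.4, 106 and 100.3 CPM in the combination lines, against 206, 152 and 142 CPM in the naive lines. All 6 lines lay below all 3 naive lines. The differences were -0.74 ± 0.15 log2 in CX5461 lines (adjusted p = 0.012) and -0.71 ± 0.15 log2 in combination lines (adjusted p = 0.0108, edgeR). Everolimus lines had 135, 155 and 165 CPM, overlapping the naive lines, at -0.14 ± 0.15 log2 (adjusted p = 0.546, edgeR). In polysomal RNA Polr1a had 170, 164 and 182 CPM in CX5461 lines and 203, 203 and 230.4 CPM in combination lines, against 306, 290.2 and 279 CPM in naive lines. The polysomal differences were -0.76 ± 0.12 log2 in CX5461 lines (adjusted p = 0.00578) and -0.46 ± 0.12 log2 in combination lines (adjusted p = 0.041, edgeR).

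When each of the 12 lines was left out in turn, the Polr1a call held in 12 of 12 fits for combination input and CX5461 polysomal RNA and in 11 of 12 for CX5461 input. It was lost there without CX5461 line 14 (adjusted p = 0.0719). For combination polysomal RNA it held in 3 of 12, and was lost without any of naive lines 6, 33 and 38, combination lines 8, 9 and 31, CX5461 lines 14 and 39 or everolimus line 26 (adjusted p up to 0.134). With CX5461 line 20 alone in the CX5461 polysomal group the Polr1a value was -0.84 log2 (adjusted p = 0.037, edgeR). In this and the other fits without the libraries of lines 14 and 39, the lone CX5461 library is assumed to vary like the other groups. The combination polysomal call was also lost without the filter on low counts (adjusted p = 0.116).

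Polr1a lies on chromosome 6, and genes of that chromosome were lower as a whole in the same lines. In CX5461 input, 171 of 632 tested chromosome 6 genes (27.1%) were called lower, against 2.68% of genes on the other chromosomes, and the chromosome's median was -0.48 log2, against a lowest median of -0.10 among the other chromosomes. In combination input, 202 of 632 (32.0%) were called lower, against 5.24% elsewhere, with a median of -0.47 log2. In everolimus input the share was 8.86%, against 5.38% elsewhere, and the median of -0.10 log2 lay within those of the other chromosomes, the lowest of which was -0.21 log2. The polysomal medians of chromosome 6 were -0.52 log2 in CX5461, -0.07 log2 in everolimus and -0.46 log2 in combination lines. The lowest medians among the other chromosomes were -0.21, -0.05 and -0.09 log2. Chromosome 3 had the highest medians in CX5461 input (0.26 log2, 16.5% of its genes called higher) and combination input (0.37 log2, 23.9%). Chromosome 5, which holds Polr1d, had medians of 0.08 and 0.21 log2 there.

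The chromosome 6 difference was present in each CX5461 and combination line and along the length of the chromosome. Over 262 chromosome 6 genes that averaged 4 log2 CPM or more, the median distance from the naive mean was -0.48, -0.48 and -0.51 log2 in input of CX5461 lines 14, 20 and 39 and -0.46, -0.41 and -0.52 log2 in combination lines 8, 9 and 31, against 0.04, 0.04 and -0.06 log2 in naive lines 6, 33 and 38. Everolimus lines 4, 12 and 26 had -0.12, -0.03 and 0.07 log2. Of the 10 tested genes nearest to Polr1a, 5 on each side, 5 were called lower in CX5461, 5 in everolimus and 9 in combination input, with medians of -0.65, -0.42 and -0.73 log2. In everolimus lines Polr1a itself, at -0.14 log2, lay above the median of these neighbours. It lay below the median of the 70 tested genes of the 10 Mb bin around it, which was 0.13 log2 in everolimus input. Relative to the chromosome's median, Polr1a was lower by -0.27 log2 in CX5461 and -0.24 log2 in combination input, and by -0.24 log2 in CX5461 and 0.00 log2 in combination polysomal RNA. The part of this chromosome-wide difference in the Polr1a result was not tested.

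**Figure D3:**
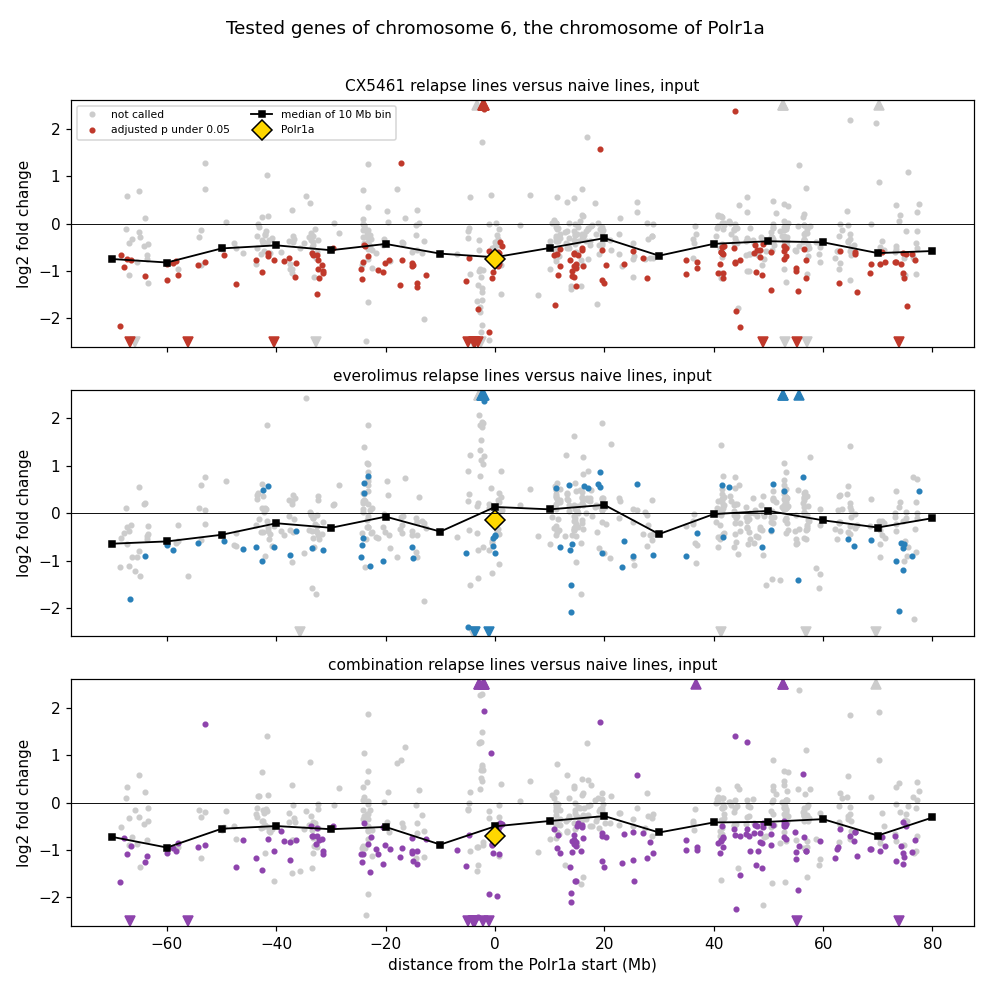
Log2 fold change in input (y axis) of the tested genes of chromosome 6 by distance from the Polr1a start (x axis, Mb), in CX5461, everolimus and combination lines against naive lines; coloured points have an adjusted p under 0.05, black squares are medians of 10 Mb bins, the diamond is Polr1a, and triangles mark genes beyond 2.5 log2. The bin medians lie between -0.82 and -0.31 log2 in CX5461 lines and between -0.95 and -0.28 log2 in combination lines, all below 0, and between -0.64 and 0.17 log2 in everolimus lines.

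Polr1b showed the opposite pattern to Polr1a. Its input levels were 164, 177 and 165 CPM in CX5461 lines, 136, 151 and 164 CPM in everolimus lines and 146, 145 and 137 CPM in combination lines, against 118, 96.6 and 102 CPM in naive lines. None of the 9 relapse lines overlapped the naive lines. Polr1b was higher by 0.67 ± 0.12 log2 in CX5461 lines (adjusted p = 0.00571), by 0.51 ± 0.12 log2 in everolimus lines (adjusted p = 0.0217) and by 0.43 ± 0.12 log2 in combination lines (adjusted p = 0.0301, edgeR). The CX5461 call held in 12 of 12 fits that leave out a line. The everolimus call was lost without everolimus lines 12 or 26 or naive lines 33 or 38, and the combination call without combination lines 8 or 9, everolimus line 12 or naive lines 33 or 38 (adjusted p up to 0.0908 and 0.125), and both were lost without the filter on low counts (adjusted p = 0.0591 and 0.14).

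On its own chromosome 2, the median gene differed by -0.00 log2 in CX5461, -0.04 in everolimus and -0.03 in combination input. In polysomal RNA Polr1b had 207, 167 and 195 CPM in CX5461 lines, against 136, 136 and 126 CPM in naive lines. It was called there, higher by 0.51 ± 0.13 log2 (adjusted p = 0.0226, edgeR). Without the polysomal libraries of lines 14 and 39 this was 0.33 log2 (adjusted p = 0.357), and it was also lost without line 14, line 39 or any naive line. In everolimus and combination polysomal RNA Polr1b differed by 0.11 ± 0.13 and 0.30 ± 0.13 log2 (adjusted p = 0.989 and 0.161, edgeR).

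The counts of both catalytic subunits can be set against each other within a library, which removes the scaling between libraries. This ratio was chosen after the levels were seen and is given as a description. In input there were 0.54, 0.62 and 0.61 counts on Polr1a per count on Polr1b in CX5461 lines, 0.99, 1.03 and 1.01 in everolimus lines and 0.68, 0.74 and 0.73 in combination lines, against 1.74, 1.58 and 1.39 in naive lines. The groups did not overlap. In polysomal RNA the ratio was 0.83, 0.98 and 0.93 in CX5461 lines, 2.02, 2.03 and 2.06 in everolimus lines and 1.26, 1.31 and 1.31 in combination lines, against 2.24, 2.13 and 2.21 in naive lines. In mice the input ratio averaged 1.02 ± 0.07 after CX5461, 1.18 ± 0.09 after everolimus and 1.24 ± 0.09 after the combination, against 1.04 ± 0.10 after vehicle (SD, n = 6 each). The polysomal ratio averaged 1.12 ± 0.08 after CX5461, 1.27 ± 0.11 after everolimus and 1.37 ± 0.09 after the combination, against 1.16 ± 0.10 after vehicle (SD, n = 6 each), and no combination mouse overlapped a CX5461 or vehicle mouse.

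**Figure D4:**
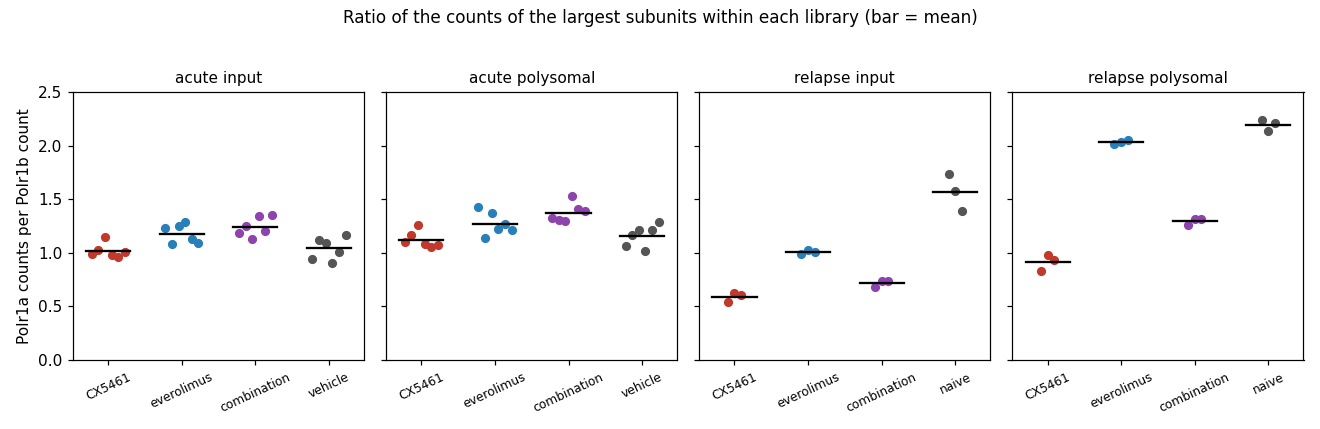
Counts on Polr1a per count on Polr1b in every library (y axis) by group (x axis) for the acute and relapse experiments in input and polysomal RNA, with the group mean as a bar. The relapse input ratios lie between 0.54 and 1.03 in the 9 relapse lines, against 1.39 to 1.74 in the naive lines. In mice the polysomal ratios lie between 1.29 and 1.53 after the combination, above those after CX5461 (1.05 to 1.26) and vehicle (1.02 to 1.29), while the everolimus mice (1.14 to 1.43) overlap each other group.

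Polr1c, a subunit shared with polymerase III, was also higher in input. It had 60.9, 63.9 and 56.4 CPM in CX5461 lines, 53.9, 63.0 and 74.3 CPM in everolimus lines and 58.7, 60.6 and 53.0 CPM in combination lines, against 34.9, 45.6 and 40.9 CPM in naive lines. All 9 relapse lines lay above the naive lines. The differences were 0.58 ± 0.14, 0.66 ± 0.14 and 0.51 ± 0.14 log2 in CX5461, everolimus and combination lines (adjusted p = 0.0288, 0.0194 and 0.0357, edgeR). The CX5461 call was lost in 5 of 12 fits that leave out a line (any CX5461 line, naive line 6 or naive line 38), and the everolimus call in 3 (everolimus lines 12 and 26, naive line 6). The combination call was lost in 6 (combination lines 8 and 9, CX5461 line 14, everolimus line 12, naive lines 6 and 38).

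In CX5461 polysomal RNA Polr1c had 135, 58.9 and 115 CPM in lines 14, 20 and 39, against 46.3, 49.3 and 43.3 CPM in naive lines. The high values are those of lines 14 and 39, whose libraries stood apart. With all lines the difference was 1.16 ± 0.24 log2 (adjusted p = 0.0146, edgeR), and without these libraries it was 0.34 log2 (adjusted p = 0.297). The call was also lost without line 14 or line 39 alone or naive lines 33 or 38. Polr1d, its partner in the enzyme, had 107, 71.5 and 94.5 CPM in CX5461 input, against 61.7, 77.3 and 69.2 CPM in naive lines, and was not called (0.39 ± 0.16 log2, adjusted p = 0.167, edgeR).

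The SL1 subunits did not move together. Taf1c had 25.2, 18.7 and 20.0 CPM in CX5461 lines, 21.2, 31.8 and 24.05 CPM in everolimus lines and 25.5, 22.2 and 20.7 CPM in combination lines, against 10.995, 14.8 and 15.5 CPM in naive lines in input, with no overlap. It was called in everolimus lines at 0.90 ± 0.19 log2 (adjusted p = 0.0191) and in combination lines at 0.73 ± 0.19 log2 (adjusted p = 0.0263), and not in CX5461 lines at 0.63 ± 0.19 log2 (adjusted p = 0.0592, edgeR). Taf1d, a further SL1 subunit, had 14.6, 18.4 and 14.2 CPM in CX5461 lines, 21.7, 14.7 and 14.7 CPM in everolimus lines and 12.2, 12.7 and 20.1 CPM in combination lines, against 23.5, 34.0 and 25.1 CPM in naive lines. Taf1d was called in combination lines, lower by -0.88 ± 0.23 log2 (adjusted p = 0.0287, edgeR), and missed the threshold in CX5461 lines at -0.81 ± 0.23 log2 (adjusted p = 0.0511) and in everolimus lines at -0.70 ± 0.23 log2 (adjusted p = 0.0701). Taf1b differed by -0.38 to -0.21 log2 in input and was called in none.

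The Taf1c everolimus call was lost without everolimus lines 12 or 26 or naive line 6, and its combination call without combination lines 8 or 9 or naive lines 6 or 33. The Taf1d combination call was lost without combination lines 8 or 9 or naive line 33 (adjusted p up to 0.123). In CX5461 polysomal RNA Taf1c had 35.9, 18.8 and 30.6 CPM, against 14.7, 11.7 and 11.3 CPM in naive lines, higher by 1.18 ± 0.24 log2 (adjusted p = 0.0134, edgeR). Without the libraries of lines 14 and 39 this was 0.57 log2 (adjusted p = 0.245), and the call was also lost without line 14 or naive lines 33 or 38. In the deposited table the column names fall into stretches of alphabetical order, here named runs. The labels do not say what a run stands for. The polysomal libraries of lines 14 and 39 alone make up the third run, so run and lines cannot be told apart.

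**Figure D5:**
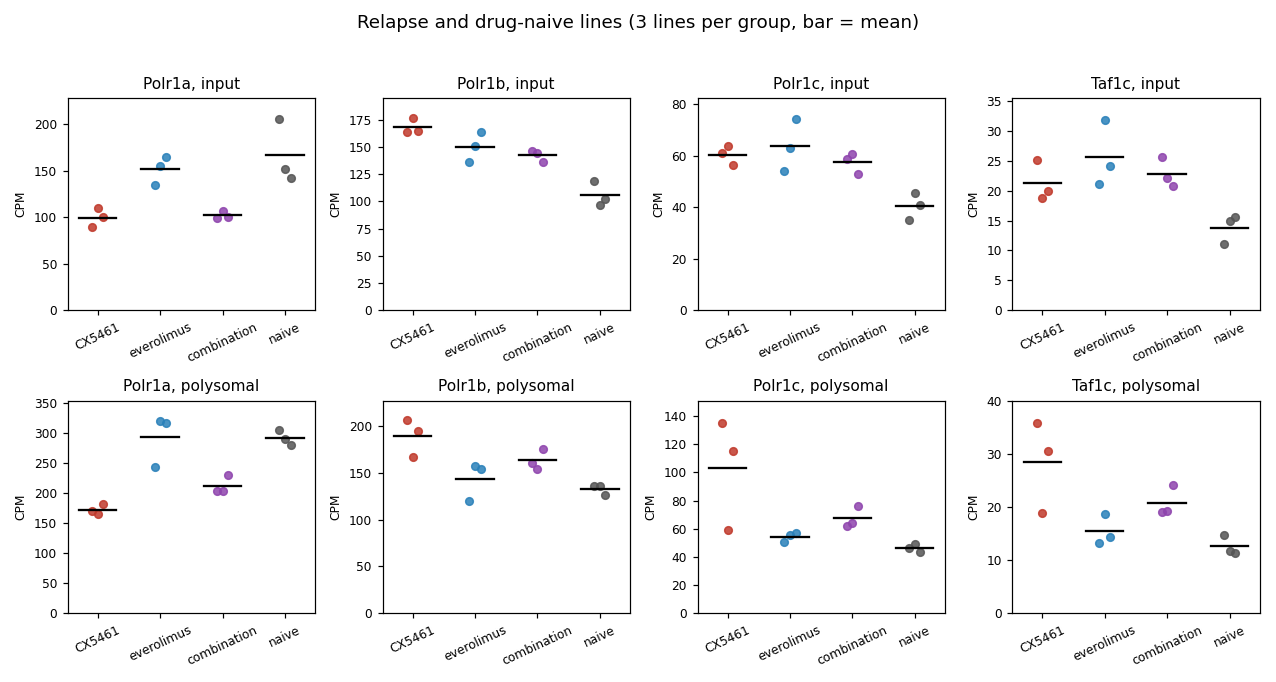
CPM (y axis) of Polr1a, Polr1b, Polr1c and Taf1c in each of 3 lines per group, in input (top) and polysomal RNA (bottom), with the group mean as a bar. In input, the CX5461 and combination lines lie below the naive lines for Polr1a (89.2 to 110 against 142 to 206 CPM) and all relapse lines above them for Polr1b, Polr1c and Taf1c; in polysomal RNA the high Polr1c values of 135 and 115 CPM are CX5461 lines 14 and 39.

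Rrn3 and Ubtf, which act before the enzyme starts, were called in no relapse comparison with naive lines. Rrn3 had 67.5, 74.1 and 73.5 CPM in CX5461 lines, 51.2, 43.8 and 51.3 CPM in everolimus lines and 54.0, 60.5 and 74.3 CPM in combination lines, against 88.1, 64.8 and 58.4 CPM in naive lines. The everolimus lines lay below the naive lines at -0.53 ± 0.17 log2, without passing the test (adjusted p = 0.058, edgeR), though DESeq2 called it (adjusted p = 0.0205). Ubtf differed from naive lines by -0.08 to 0.05 log2 in input. Polr1e, a polymerase-associated subunit also known as PAF53, differed by -0.00 to 0.26 log2 in input and was called in none.

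In edgeR's test no member was called between the combination lines and the single-drug lines. Against CX5461 lines, 0 of 10 members were called in input and polysomal RNA, against 0.0207% and 0.00676% of genes, with 0 and 2 members at an unadjusted p under 0.05. Against everolimus lines, 0 of 10 were called in both, against 0.719% and 0.703% of genes, with 2 members in each at an unadjusted p under 0.05. DESeq2 called Polr1a against everolimus lines in both fractions, at -0.58 log2 in input (adjusted p = 0.0169) and -0.46 log2 in polysomal RNA (adjusted p = 0.00599). The Polr1a levels of these groups did not overlap, at 99.4 to 106 CPM in combination and 135 to 165 CPM in everolimus input. In polysomal RNA they were at 203 to 230.4 CPM in combination and 243 to 320 CPM in everolimus lines.

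Other genes of the pathway were called in part, beside 8.37% of all genes in CX5461, 11.7% in everolimus and 13.5% in combination input. Among the 3 other polymerase I subunits 0 were called in any relapse line, and among the 3 other SL1 and preinitiation genes 0. Of the 5 shared subunits, Polr2h was called in input, higher by 0.59 ± 0.12 log2 in CX5461 lines (adjusted p = 0.0112) and by 0.46 ± 0.12 log2 in combination lines (adjusted p = 0.0247, edgeR). Of 10 tested genes of rDNA termination and chromatin, 0 were called in CX5461 input, 4 were lower and 1 was higher in everolimus input, and 1 was lower in combination input. The gene called lower in both was Top1, which encodes topoisomerase I, at -0.65 ± 0.14 and -0.53 ± 0.14 log2 (adjusted p = 0.0193 and 0.0251, edgeR). Of 11 polymerase III subunits, 2 were higher in CX5461 input, 1 was lower in everolimus input (Polr3f, -0.65 ± 0.18 log2, adjusted p = 0.0405, edgeR), and 2 were higher and 1 lower in combination input. Polr3gl was higher by 0.99 ± 0.15 log2 in combination lines (adjusted p = 0.00245, edgeR).

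The place of each transcript on polysomes was read from fits over both fractions with the mouse or line as a block. These values depend on how the fractions are scaled to each other. Scaling by library totals instead of by TMM, an alternative chosen after seeing the data, moved the median of all genes by 0.18 log2 in vehicle mice and by 0.56 log2 in naive lines, so that the medians were -0.07 and -0.10 log2 with TMM and 0.11 and 0.46 log2 with library totals. Values below are therefore given relative to the median of all genes, which differs by at most 0.01 log2 per member between both scalings, and the CPM given above, scaled within each fraction, are not comparable between fractions.

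In vehicle mice Polr1c lay below the median gene by -0.35 log2, Polr1b by -0.27, Polr1d by -0.22 and Polr1a by -0.11 log2. Ubtf lay above it by 0.39 log2 and Polr1e by 0.23 log2. With TMM these 6 of 10 members were called, against 56.9% of 16421 genes, at -0.41 ± 0.06, -0.34 ± 0.06, -0.29 ± 0.06 and -0.18 ± 0.05 log2 for Polr1c, Polr1b, Polr1d and Polr1a and at 0.33 ± 0.05 and 0.16 ± 0.06 log2 for Ubtf and Polr1e (adjusted p = 4.11e-07, 8.83e-06, 0.000338, 0.00299, 1.52e-06 and 0.0155, edgeR). With library totals 4 were called, against 47.3% of genes: Polr1c at -0.24, Polr1e at 0.34, Ubtf at 0.50 and Taf1d at 0.37 log2 (adjusted p = 0.0303, 0.0116, 6.35e-05 and 0.0142, edgeR). Polr1a, Polr1b and Polr1d were then not called, at -0.01, -0.17 and -0.12 log2. Relative to the median gene, the members not called with TMM lay at 0.27 log2 (Taf1d), 0.12 (Taf1b), 0.03 (Rrn3) and 0.03 log2 (Taf1c).

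In naive lines Polr1e lay above the median gene by 0.87 log2, Taf1b by 0.86 and Rrn3 by 0.63 log2. Taf1c lay below it by -0.69 log2, Polr1d by -0.48 and Polr1b by -0.23 log2. With TMM these 6 of 10 members were called, against 44.1% of 15637 genes, at 0.77 ± 0.11, 0.76 ± 0.13 and 0.53 ± 0.14 log2 for Polr1e, Taf1b and Rrn3 and at -0.79 ± 0.18, -0.58 ± 0.11 and -0.33 ± 0.10 log2 for Taf1c, Polr1d and Polr1b (adjusted p = 0.000241, 0.000761, 0.01, 0.00447, 0.00142 and 0.0176, edgeR). With library totals 5 were called, against 43% of genes, all higher: Polr1e, Taf1b, Rrn3, Ubtf at 0.82 log2 (adjusted p = 0.000445) and Polr1a at 0.72 log2 (adjusted p = 0.0058, edgeR). Polr1b turned to 0.23 log2, and Taf1c and Polr1d were at -0.23 and -0.03 log2, none of them called. Relative to the median gene, the members not called with TMM lay at 0.36 log2 (Ubtf), -0.36 (Polr1c), 0.26 (Polr1a) and -0.11 log2 (Taf1d). Polr1a thus lay above the median gene in naive lines and below it in vehicle mice. With TMM and without naive line 38 the calls for Polr1b, Rrn3 and Taf1c were lost, without naive line 6 that for Polr1b, and without naive line 33 that for Rrn3. The TMM call of Polr1b was also lost without the filter (adjusted p = 0.383), and in mice those for Polr1a and Polr1e without the mouse as a block (adjusted p = 0.0859 and 0.148). The TMM call of Polr1e in mice was also lost without the mice whose polysomal library was rich in Lars2 and Yam1 (adjusted p = 0.125).

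No drug effect on the polysomal level relative to input was called for a member by edgeR's test. In mice 0 of 10 members were called for translational efficiency after CX5461, everolimus or the combination, against 0% of genes each time, with 0, 2 and 1 members at an unadjusted p under 0.05. In relapse lines 0 of 10 were called in CX5461, everolimus and combination lines, again against 0% of genes, with 1, 3 and 0 members at an unadjusted p under 0.05. The value farthest from 0 in mice was that of Taf1c after the combination, at 0.40 ± 0.13 log2 (adjusted p = 0.251, edgeR), and without the filter on low counts its adjusted p was 0.00953. In the relapse lines it was Taf1d in everolimus lines, at 0.94 ± 0.39 log2 (adjusted p = 0.444, edgeR).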

How the data were processed

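RNA was measured by sequencing of ribosomal RNA-depleted libraries with single reads of 50 bases, per the labels' protocols. The authors deposited 4 tables of counts, reads per gene and library, made with TopHat2 and HTSeq on GRCm38 per the submitters' processing notes; versions, annotation and the strand setting are not given in the sources used here. Rows for reads outside genes were left out of totals and tests.

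Counts were analysed with edgeR 4.0.16 in R 4.3.3 (TMM scaling, filterByExpr, all 4 groups in 1 fit per table, quasi-likelihood test, Benjamini-Hochberg adjustment over all genes tested, threshold 0.05). The SE of a log2 fold change is its size over the square root of F. CPM use TMM-scaled totals. Translational efficiency was fitted over both fractions with the mouse or line as a block. DESeq2 1.42.0, RLE scaling, library totals between fractions (added after seeing the data), no filter, pairs of groups alone, left-out libraries and a replicate block were alternatives; the closing part gives their effect. Each fit was run on simulated counts, with the same spread for every gene and changes, in well-counted genes, larger than most seen here. This checked the code and does not show how well smaller changes are found in these libraries. Exon lengths, positions and neighbouring genes are from GENCODE M21.

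All members are named; other genes were named where they passed the test in a list, or for likeness to Polr1b, Rrn3 and Taf1d. Members and lists were chosen with earlier results of these data known. The chromosome values and the subunit ratio were added after levels were seen. Labels do not say that lines or mice are independent of shared handling, so p-values measure the spread between these samples. The closest replicates, everolimus mice 1 and 3, differed in input by 1.34 times the sampling variance by the median gene, so were kept apart.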

Additional observations from a re-analysis of the deposited data

Results flagged for a closer look

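Of 80 groups of 6 mice (10 members, 4 treatments, 2 fractions), 5 held a mouse whose gap to the nearest other mouse, on the log2 scale, was large for the range of its group (over 0.625 of it), and chance flags about 5% of such groups. In input, CX5461 mouse 4 had 161 CPM of Polr1a, against 202 to 229 CPM in the other 5 mice. That library held 23.3% of its counts on Gm26870 and Gm10800. Combination mouse 6 had 151 CPM of Polr1b in input, against 187 to 195 CPM. Everolimus mouse 4 was low for both Polr1d, at 78.2 CPM against 107 to 127 CPM, and Polr1e, at 22.8 CPM against 29.7 to 34.1 CPM, in input. In polysomal RNA, everolimus mouse 6 had 73.2 CPM of Polr1c, against 55.3 to 60.4 CPM. The chromosome 6 values beside Polr1a and the member calls that rest on the polysomal libraries of CX5461 lines 14 and 39 are given with their results.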

How the results depend on the processing

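Of 369 recomputed counts of called members, 310 stayed within 1.5 times the count given and 59 did not. A count of 0 that stayed at 0 is among the 310, and many comparisons had 0 called members. The 310 is therefore no measure of how stable the calls themselves are. The 1 called value that changed sign was Polr1b between polysomal RNA and input in naive lines, at 0.23 log2 with library totals as the scaling, which was added after seeing the data. With the replicate block the acute counts were 0, 0 and 1 in input and 0, 0 and 1 in polysomal RNA for CX5461, everolimus and the combination against vehicle, and 4 for the combination against CX5461, the same as without it. The labels do not say whether same-numbered mice were handled together. Deviations from group means of same-numbered acute libraries correlated at a mean of 0.01 in input and -0.03 in polysomal RNA, with lowest values of -0.56 and -0.48. These values cannot settle whether the numbers share handling. Without the replicate block of mice or lines, the polysomal against input counts were 4 in vehicle mice and 6 in naive lines, and 0 for each efficiency.

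In mice, DESeq2 called 1 member (Rrn3) in input after everolimus and 1 (Taf1c) for the polysomal interaction. Without vehicle mouse 6 and combination mouse 3, input gave 1 (Rrn3) after everolimus and 3 after the combination, and polysomal RNA 4 after the combination. The calls gained after the combination were Polr1c (-0.24 log2) and Taf1d (0.43 log2) in input. In polysomal RNA they were Polr1c (-0.21 log2), Polr1e (-0.32 log2) and Taf1d (0.47 log2). The combination input count was 0 without the filter and with its groups alone, and its polysomal count was 3 without the mice rich in Lars2 and Yam1. Efficiency after the combination gave 1 (Taf1c) without the filter.

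In relapse lines against naive lines, DESeq2 called 5 members in CX5461 and 5 in everolimus input, and 2 in combination polysomal RNA. With the compared groups alone the counts were 1, 1 and 2 in CX5461, everolimus and combination input, 1 in CX5461 and 3 in combination polysomal RNA. Without the filter they were 5 in CX5461 input and 0 in combination polysomal RNA. DESeq2 called 1 member (Polr1a) for the combination against everolimus in each fraction. Added after seeing the data, the run of columns in the table as a term gave 5 in CX5461 and 5 in everolimus input, 1 in CX5461 and 3 in combination polysomal RNA, and 1 for the combination against everolimus in each fraction; without the polysomal libraries of lines 14 and 39 the counts were 1 in CX5461, 3 in combination and 1 for the combination against everolimus.

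Leaving out each line in turn gave 1 to 4, 0 to 4 and 1 to 5 members in CX5461, everolimus and combination input, 1 to 7 and 0 to 3 in CX5461 and combination polysomal RNA, 0 to 4 and 0 to 1 for the combination against CX5461 and everolimus in polysomal RNA, 0 to 2 for CX5461 efficiency and 3 to 8 for polysomal against input in naive lines. Leaving out CX5461 line 20 gave the highest polysomal counts of 7, 3 and 4. The causes were not tested. With 3 lines a group, calls near the threshold hang on single lines.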
